A study of Homo sapiens with 13 samples.

Results

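Replication-type histone genes encode the core histones H2A, H2B, H3 and H4 and the linker histone H1, which package newly copied DNA. They were taken here as the coding-gene rows with a symbol that starts HIST1H, HIST2H, HIST3H or HIST4H, which were 68 of the 38369 rows in each of the deposited expression tables. The 68 rows held 66 symbols: 2 rows carried 2 symbols each (HIST1H2AD with HIST1H3D, and HIST1H3E with HIST1H3F), and 3 symbols (HIST2H2AA3, HIST2H3C and HIST2H4A) had 2 rows each. There were 6 rows for H1, 15 for H2A, 18 for H2B, 13 for H3, 15 for H4 and 1 shared by an H2A and an H3 gene. In the hg19 coordinates of the files 53 rows lay on chromosome 6, 14 on chromosome 1 and 1, HIST4H4, on chromosome 12.

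As background, most of these genes are transcribed in S phase, when the cell copies its DNA, and their mRNAs normally carry no polyA tail. Such an mRNA ends just after a short stem-loop, which is bound by the stem-loop binding protein SLBP, and the cut after it is made by a complex that holds a small nuclear RNA. Some of the same genes can be read past the stem-loop to a polyA signal, and polyadenylated histone transcripts of that kind are known from cells that leave the cell cycle or differentiate.

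RNA labelled as polyA-selected was sequenced from the human mammary line MCF10A, which is immortalised but does not form tumours and which the labels list under breast cancer. In the over-expression experiment, parental MCF10A cells were harvested 72 h after transduction with the long intergenic RNA LINC00520 (n = 2 libraries) and compared with untransduced, mock-treated cells (n = 3). Transduction itself and LINC00520 cannot be told apart in that comparison, since 2 samples transduced with a control lincRNA were not analysed here. In the time course, MCF10A-Src cells, which carry a Src kinase that tamoxifen activates, were sampled at 0 h (n = 1), 4 h (n = 2), 12 h (n = 1) and 36 h (n = 2) of tamoxifen, with no untreated library beyond 0 h. The labels do not say whether the Src line is 1 clone, or whether replicates were separate cultures.

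Depth ranged from 12576940 to 52335486 fragments per library. The LINC00520 row held 1122 and 1031 fragments in the LINC00520 libraries, against 5, 6 and 2 in the untransduced libraries. The 8 basal breast epithelial markers each reached 1 FPKM, and their summed level was 3636 to 4160 FPKM in the over-expression libraries and 3575 to 6486 FPKM in the time-course libraries. FPKM, the authors' scaled level, is per transcript length and library size. The hormone receptors ESR1 and PGR summed to 0.139 to 0.492 FPKM in the over-expression libraries and 623 to 1561 FPKM in the time course. Only 1 of the 2 reached 1 FPKM in the time course, so that sum does not show that both were expressed. In the over-expression libraries 0 of the 2 reached 1 FPKM. Of the markers of other cell types, summed endothelial markers stayed at or below 0.0153 FPKM, immune markers at or below 16.5 FPKM and fibroblast markers at or below 78.9 FPKM.

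The sequences below show the transcript ends of members described later, since the stem-loop and the polyA signal are what tell the ends of a histone transcript apart. They come from GENCODE release 29 transcripts (build GRCh38), in which all 66 symbols were found. The histone stem-loop was searched on the transcript strand as 16 bases that start with GG, end with CC, hold 6 fully matched base pairs and close a loop of 4 bases; 27 symbols had a transcript that reached it, and many of the remaining annotated transcripts stop before it. The 16 bases of the stem-loop are in capitals, with 5 bases on either side.
HIST3H2A stem-loop, chromosome 1: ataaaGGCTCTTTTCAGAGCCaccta
HIST3H2BB stem-loop, chromosome 1: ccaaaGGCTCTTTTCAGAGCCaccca
HIST2H2BE stem-loop, chromosome 1: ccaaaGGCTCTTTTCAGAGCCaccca
HIST1H2AC stem-loop, chromosome 6: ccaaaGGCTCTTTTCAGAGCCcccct
HIST1H2BD stem-loop, chromosome 6: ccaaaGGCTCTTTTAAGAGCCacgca
HIST1H4H stem-loop, chromosome 6: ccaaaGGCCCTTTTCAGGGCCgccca
The H2A and H2B genes shown share the GGCTCT stem, whereas the H4 gene has GGCCCT. For 18 symbols GENCODE also lists a transcript that either runs at least 100 bases past the stem-loop or leaves it out, and that carries a polyA signal (AATAAA or ATTAAA, capitals below) in its last 50 bases. These sites are shown for members that were detected in the over-expression libraries.
HIST3H2A polyA signal, 390 bases of transcript after the stem-loop: tttatctgatATTAAAagtatttatgat
HIST2H2BE polyA signal, 1729 bases after the stem-loop: tattgttattAATAAAgttaccaattaa
HIST1H2AC polyA signal, 1128 bases after the stem-loop: ggcatgaggtAATAAAaggtaatgcaaa
HIST1H2BD polyA signal, in a 789-base transcript without the stem-loop: agttataattAATAAAatctgcggagaa

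The 2 experiments differed by orders of magnitude in how much histone RNA the libraries held. The 68 rows together took 0.00789% and 0.00762% of fragments in the LINC00520 libraries and 0.0101%, 0.0106% and 0.0103% in the untransduced libraries. Time-course libraries gave them 0.648% at 0 h, 0.453% and 0.861% at 4 h, 1.18% at 12 h, and 0.473% and 0.426% at 36 h. Every time-course library thus held far more than any over-expression library, while the replacement histones, which are made outside S phase as ordinary polyadenylated mRNAs, took 0.223% to 0.239% of fragments in the over-expression libraries and 0.109% to 0.187% in the time course. The tables were scaled separately and the cell lines differ, so this contrast was not tested.

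**Figure D1:**
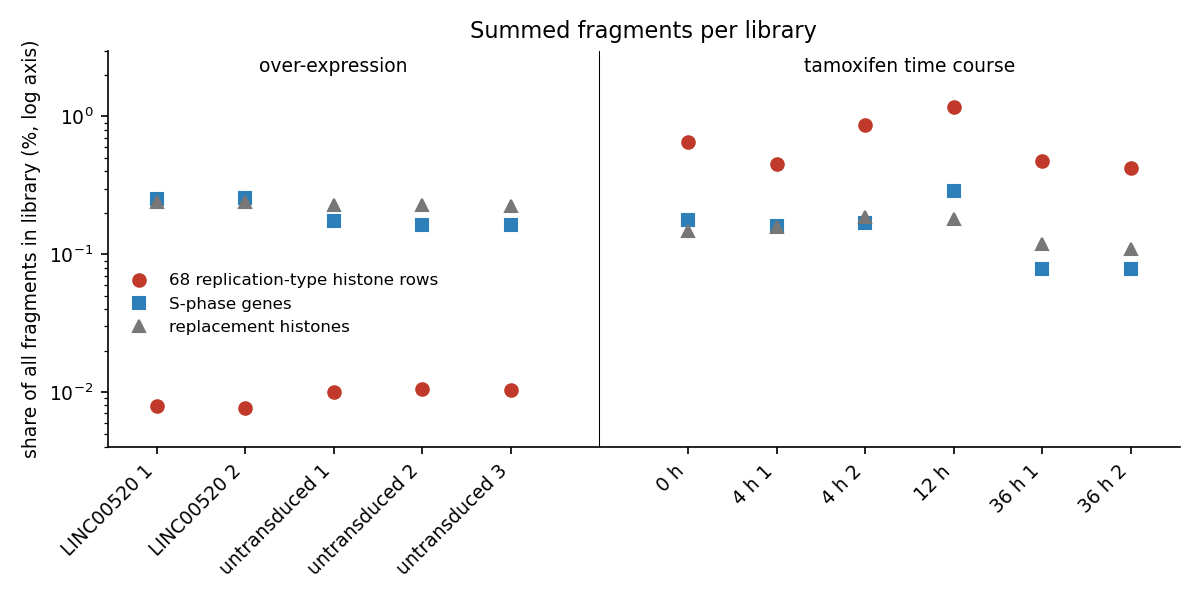
Share of all fragments in each library (percent, log axis) taken by the 68 histone rows (circles), the S-phase gene list (squares) and the replacement histones (triangles); each point is 1 library, and no error bars are drawn. The histone rows sit between 0.00762% and 0.0106% in the over-expression libraries and between 0.426% and 1.18% in the time course.

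The same gap was seen gene by gene. Of the 68 rows 55 reached 10 FPKM in some time-course library, with none of those 55 below 11.9 FPKM in any library and a median over genes of 378 FPKM. In the over-expression libraries 4 rows reached 10 FPKM, and the median over all 68 rows was 0.133 FPKM. HIST1H4C, an H4 gene, had the highest level of the time course, 1501 to 3901 FPKM, and at most 0.190 FPKM in the over-expression libraries. HIST1H3B, an H3 gene, spanned 523 to 1422 FPKM in the time course and 0.104 to 0.256 FPKM in the over-expression libraries.

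The family make-up of the fragments differed too. H2B genes held 59.7% and 59.1% of the histone fragments in the LINC00520 libraries and 57.2%, 55.4% and 57.2% in the untransduced libraries, with HIST1H2BK alone holding 43.6% and 44.4%, against 39.3%, 38.5% and 39.8%. H4 genes held 0.839% to 1.29% in those 5 libraries. In the time course the fragments were spread over all families: H1 held 17.5% to 29.4%, H2A 17.4% to 21.3%, H2B 23.9% to 30.8%, H3 12.99% to 18.9% and H4 9.29% to 13.3%. There the linker histones HIST1H1B, HIST1H1C and HIST1H1E together with HIST1H3H held the 4 largest shares at 0 h, 8.09%, 7.64%, 7.55% and 4.66%.

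Of the 20 rows with an annotated polyadenylated extended transcript, 9 passed the level filter of the over-expression experiment (1 FPKM or more in at least 2 libraries), against 4 of the other 48 rows. The 4 were HIST1H2BK, HIST1H1C, HIST2H2AC and HIST1H2BG, for each of which GENCODE 29 lists a single transcript. The split does not separate extended from unextended transcripts. That of HIST1H2BG runs 1059 bases past its stem-loop and was counted among the 48 because it lacks a polyA signal near its end. HIST1H2BF, HIST3H2BB, HIST4H4 and HIST1H4I, also among the 48, run on by 732, 1917, 1510 and 212 bases. The listed HIST1H2BK transcript has 381 bases and no stem-loop, so it cannot show an extension. Median levels were 0.636 FPKM for the 20 rows and 0.0341 FPKM for the 48 rows in the over-expression libraries, while in the time course they were 187 FPKM for the 20 rows and 281 FPKM for the 48 rows.

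Dividing a member's share of fragments by its FPKM gives the transcript length that the authors' quantification implies, a value that moves with the isoforms counted and with each library's fragment size. It can fall well below the transcript itself. For HIST1H4C, whose longest GENCODE transcript has 435 bases, it was 0.089 to 0.141 kb in the time course. For HIST1H2AC, an H2A gene, it was 1.31 to 1.505 kb in the over-expression libraries and 0.230 to 0.324 kb in the time course. For HIST1H2BJ, an H2B gene, it was 0.847 to 1.75 kb in the over-expression libraries and 0.167 to 0.246 kb in the time course. For HIST1H2BD, another H2B gene, it was 0.596 to 0.675 kb in the over-expression libraries and 0.204 to 0.295 kb in the time course. The implied lengths of these 3 genes did not overlap between the experiments, and were longer in the over-expression libraries. They were not alone in this. HIST1H4H implied 0.614 to 0.909 kb in the over-expression libraries and 0.131 to 0.161 kb in the time course. HIST1H2BC implied 0.514 to 0.769 kb in the over-expression libraries and 0.149 to 0.216 kb in the time course. HIST1H2BK moved less but did not overlap, with 0.664 to 0.684 kb in the over-expression libraries and 0.462 to 0.636 kb in the time course. HIST3H2A, with 0.333 to 0.344 kb and 0.179 to 0.263 kb, did not overlap either. Nor did HIST1H1C, with 0.573 to 0.591 kb in the over-expression libraries and 0.384 to 0.534 kb in the time course. How much of the shift comes from fragment size and how much from the isoforms counted was not tested. Among members with at least 10 fragments in every library, HIST2H2BE and HIST1H3H overlapped between the experiments. HIST2H2BE implied 2.09 to 2.16 kb in the over-expression libraries and 1.68 to 2.33 kb in the time course. All libraries are labelled polyA-selected, and yet the time-course libraries held most of the gene set at high level. The part of RNA selection in this was not tested. The 17 RNAs made without a polyA tail were looked up among coding-gene rows only. That search cannot tell whether they were measured.

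**Figure D2:**
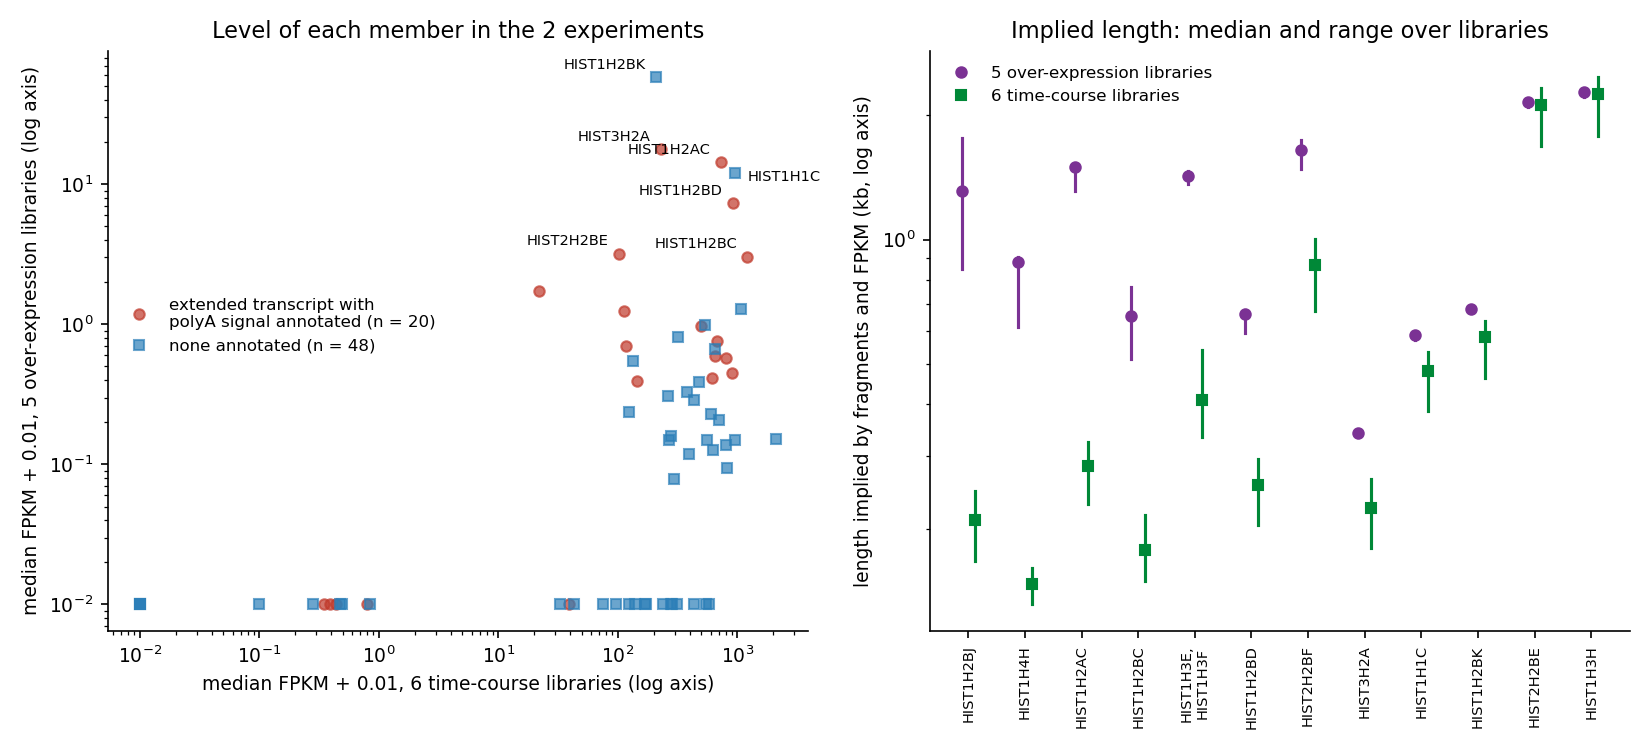
Left, each of the 68 rows by its median FPKM in the 6 time-course libraries (x) and the 5 over-expression libraries (y), both log axes with 0.01 added; circles mark the 20 rows with an annotated polyadenylated extended transcript and squares the other 48. Right, the implied transcript length in kb (log axis; marker, median; line, lowest to highest library) for the members with at least 10 fragments in every library. HIST1H2AC falls apart into 1.31 to 1.505 kb and 0.230 to 0.324 kb, while HIST2H2BE overlaps between the experiments.

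The first comparison asks what LINC00520 over-expression did to the histone transcripts that the over-expression libraries contain. Of the 13 members that passed the level filter, 8 were lower and 0 were higher in LINC00520 cells (edgeR quasi-likelihood test, Benjamini-Hochberg adjusted p under 0.05 over 12790 genes). Over all genes tested 24.8% were called lower and 25.2% higher. The median log2 fold change of the 13 was -0.51, against 0.00 over all genes. The filter admitted HIST1H2BN and HIST1H2BG through the untransduced libraries alone. Without any filter 55 members were tested, with a median of -0.25. In that fit 9 members (16.4%) were lower and 0 higher, against 14.3% of all genes lower and 13.4% higher, so the share of members lower was close to the background.

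HIST2H2BE, an H2B gene at chr1:149856012-149858232 (hg19), had 3.75 and 3.74 CPM (fragments scaled to library size after TMM) in LINC00520 cells, against 8.08, 6.92 and 8.16 CPM in untransduced cells. The groups were well apart, and the log2 fold change was -1.04 ± 0.12 (SE; edgeR adjusted p = 1.39e-07). HIST1H2AC, at chr6:26124373-26139311, had 15.4 and 15.6 CPM in LINC00520 cells, against 22.4, 23.9 and 21.9 CPM in untransduced cells (log2 fold change -0.56 ± 0.07, edgeR adjusted p = 1.51e-07). HIST3H2A, an H2A gene at chr1:228645066-228645560, had 4.73 and 3.57 CPM in LINC00520 cells, against 6.55, 7.86 and 6.22 CPM in untransduced cells. Its log2 fold change was -0.73 ± 0.13 (edgeR adjusted p = 8.19e-05), and again no LINC00520 library reached the lowest untransduced library. These 3 genes were also the only members with a q-value under 0.05 in the authors' deposited table, all 3 with lower mean FPKM in LINC00520 cells. They were 3 of 22 members tested there, a share close to the 12.9% of all genes called in either direction.

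HIST1H2BK, at chr6:27106073-27114619, the most abundant member here, changed least among those called: 35.7 and 35.2 CPM in LINC00520 cells, against 40.2, 41.2 and 41.5 CPM in untransduced cells (log2 fold change -0.21 ± 0.05, edgeR adjusted p = 0.00129). HIST1H2BD, at chr6:26156559-26171574, had 3.87 and 3.48 CPM in LINC00520 cells, against 4.99, 6.13 and 5.11 CPM in untransduced cells (-0.55 ± 0.13, edgeR adjusted p = 0.00142). The files list HIST1H1E at the interval of HIST1H2BD and HIST1H4I at that of HIST1H2BK, so how fragments were divided within each pair is uncertain. The remaining 3 called members were nearer to the threshold. HIST1H2BN had 0.247 and 0.267 CPM in LINC00520 cells, against 0.641, 0.599 and 0.661 CPM in untransduced cells (-1.28 ± 0.43, edgeR adjusted p = 0.0150). The shared HIST1H3E and HIST1H3F row had 2.06 and 1.61 CPM, against 2.54, 2.36 and 3.09 CPM (-0.51 ± 0.19, edgeR adjusted p = 0.0291). HIST1H1C, a linker histone gene, had 6.34 and 6.69 CPM, against 7.22, 8.52 and 7.80 CPM (-0.27 ± 0.10, edgeR adjusted p = 0.0386). In all 8 called members both LINC00520 libraries lay below all 3 untransduced libraries. These members were called from the same libraries, so that separation adds no support to the calls.

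The 5 members that did not pass the test spanned both directions. HIST1H2BC had 2.51 and 2.05 CPM in LINC00520 cells, against 1.84, 1.93 and 1.68 CPM in untransduced cells, and HIST2H2AC had 0.576 and 0.401 CPM, against 0.362, 0.266 and 0.220 CPM. Both sat above the untransduced libraries (log2 fold changes 0.32 and 0.74, edgeR adjusted p = 0.155 and 0.175). HIST1H2BG, HIST1H2BH and HIST1H2BJ overlapped between the groups. The 5 members HIST2H2BE, HIST1H2AC, HIST3H2A, HIST1H2BK and HIST1H2BD kept their call under every alternative run. The calls of HIST1H2BN, the HIST1H3E and HIST1H3F row and HIST1H1C were lost when LINC00520 replicate 2 was left out.

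**Figure D3:**
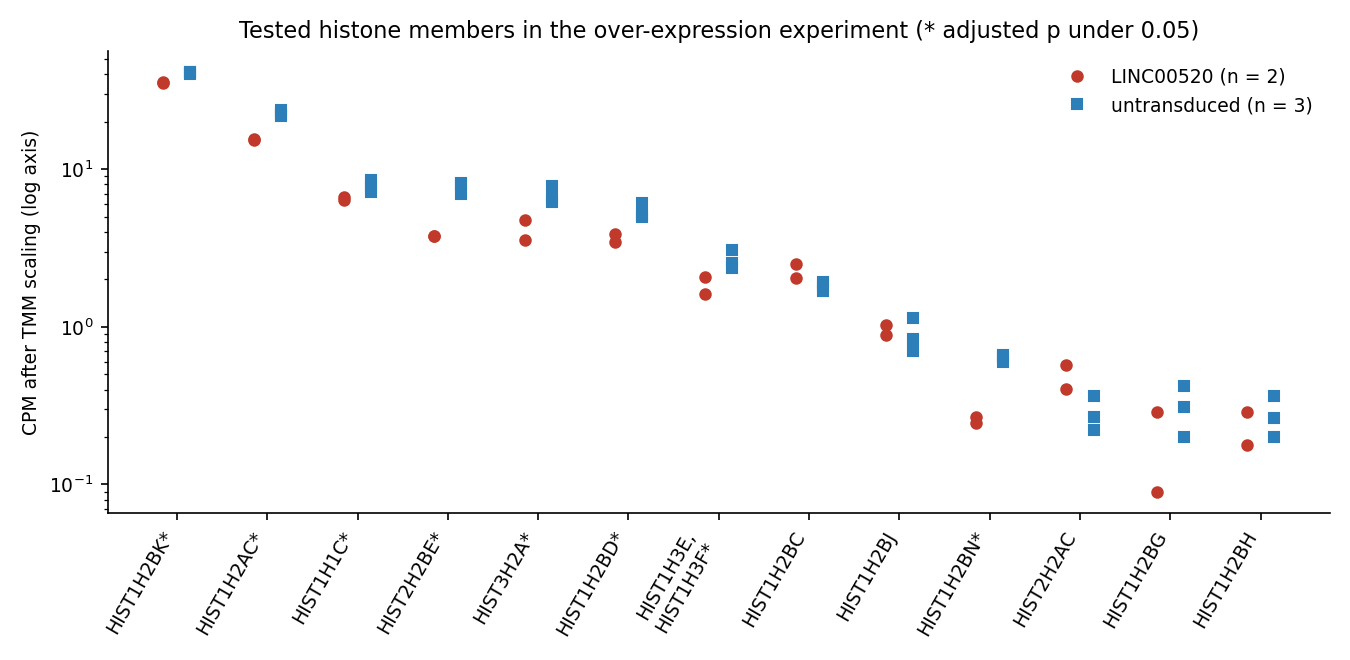
CPM after TMM scaling (log axis) of the 13 members tested in the over-expression experiment, with LINC00520 libraries as circles (n = 2) to the left of untransduced libraries as squares (n = 3); each point is 1 library and a star marks edgeR adjusted p under 0.05. The circles of the 8 starred members, which were called from these same libraries, lie below all of their squares.

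The other genes of the pathway were counted in the same fit. All 21 tested S-phase genes were higher, with a median log2 fold change of 0.66. RRM2, which makes DNA building blocks, rose by 1.08 ± 0.04 on the log2 scale (edgeR adjusted p = 4.85e-17), and PCNA, the clamp of the replication machinery, by 0.69 ± 0.04 (edgeR adjusted p = 9.90e-14). Of 9 tested genes of histone gene transcription 7 were higher and 1 lower; the cyclin E genes CCNE2 and CCNE1 rose by 1.07 ± 0.08 and 0.98 ± 0.09, and NPAT, the coactivator of histone genes that cyclin E and CDK2 act on, by 0.34 ± 0.05 (edgeR adjusted p = 2.42e-10, 1.56e-09 and 9.88e-06).

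Of 20 tested genes of histone pre-mRNA 3′ processing and turnover, 11 were higher and 2 lower. SLBP rose by 0.36 ± 0.04 (edgeR adjusted p = 4.33e-07). Of 11 histone chaperones of replication 7 were higher and 0 lower, among them ASF1B (0.75 ± 0.06) and CHAF1A (0.66 ± 0.06), which hand histones to new DNA (edgeR adjusted p = 2.82e-10 and 8.84e-10). Among the replacement histones 6 of 11 were higher and 4 lower. H2AFX, the variant marked at DNA breaks, rose by 0.66 ± 0.05 and H2AFZ by 0.34 ± 0.03, whereas H1F0, a linker histone of resting and differentiated cells, fell by 0.62 on the log2 scale (SE 0.05) (edgeR adjusted p = 8.21e-11, 5.44e-09 and 2.64e-10). Of 9 tested CDK inhibitors, D cyclins and related brakes on the cycle 1 was higher, CCND1 (0.48 ± 0.03, edgeR adjusted p = 1.97e-12), and 5 were lower, led by CDKN1C, which fell by 1.56 (SE 0.10, edgeR adjusted p = 4.86e-12). In bulk RNA fewer cells in a phase of the cycle and less RNA per cell cannot be told apart.

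The 4 h replicates have to be described before any comparison, since they stood apart in these genes. HIST1H4C had 209 CPM in 4 h replicate 1 and 421 CPM in 4 h replicate 2, and HIST1H2BD had 169 and 337 CPM. Over the 55 members with at least 1 CPM in every library the log2 ratio of replicate 2 to replicate 1 had a median of 0.96 and ranged from 0.57 to 1.74, so all 55 were higher in replicate 2. Over all 14967 genes at that level the median ratio was -0.02 and 5.44% exceeded 0.5. The S-phase genes had a median ratio of 0.11 and the replacement histones 0.23. The composition was nearly the same in both libraries: H1 held 17.8% and 17.5%, H2A 21.3% and 21.3%, and H4 12.2% and 13.3% of the histone fragments. The histone members thus differed together between 2 libraries labelled as replicates. What separated the 2 libraries was not tested.

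The 36 h replicates showed no shared shift of that size (median log2 ratio of replicate 2 to replicate 1 -0.07), but members scattered more widely. Over the 55 members the SD of the ratio was 0.50 and the range -1.88 to 0.69, with 17 members above 0. The SD was 0.18 for the members at 4 h and 0.30 for all genes at 36 h. HIST1H2BL had 58.5 CPM in 36 h replicate 1 and 23.3 CPM in 36 h replicate 2. HIST2H2BE had 247 CPM in 36 h replicate 1 and 73.6 CPM in 36 h replicate 2, and HIST2H2BF, another H2B gene on chromosome 1, had 162 and 43.9 CPM. Both lay outside the range of the 4 h libraries on opposite sides (124 and 216 CPM for HIST2H2BE, 65.2 and 133 CPM for HIST2H2BF).

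**Figure D4:**
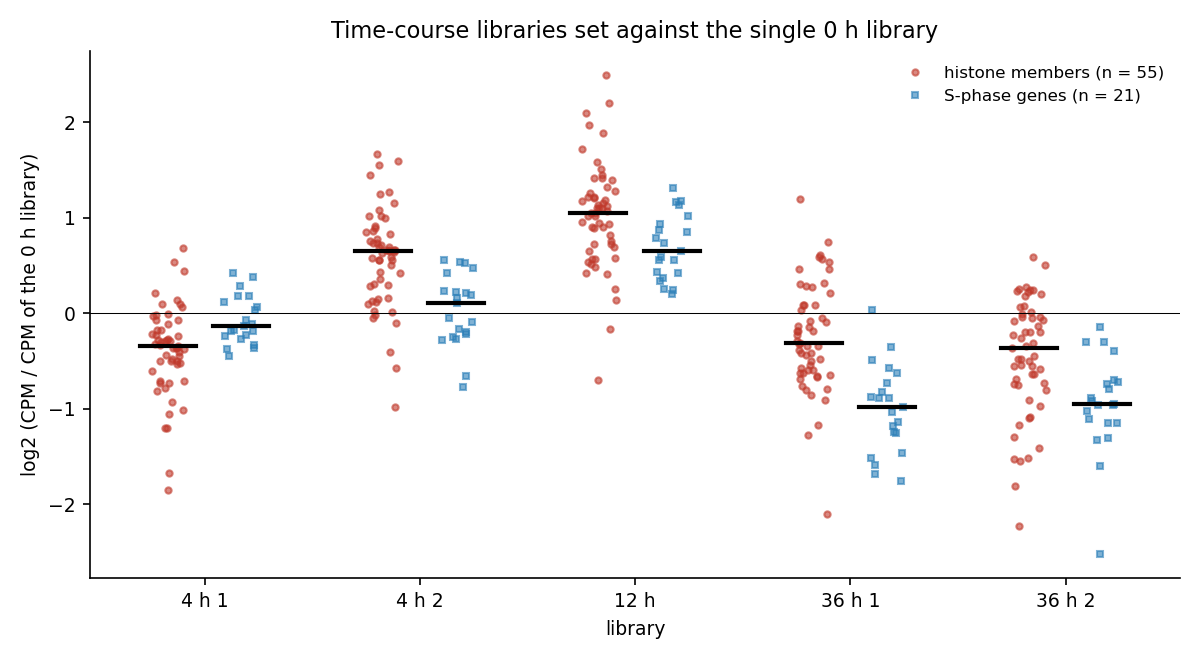
Log2 ratio of each library's CPM to that of the single 0 h library for 55 histone members (circles) and 21 S-phase genes (squares); each point is a gene, and black bars are medians. The histone medians are -0.34 and 0.65 in the 4 h libraries, 1.05 at 12 h, and -0.31 and -0.37 in the 36 h libraries, while the S-phase medians are -0.13, 0.10, 0.65, -0.99 and -0.96.

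Both times had 2 libraries when 36 h was set against 4 h. Of 60 members tested 14 were lower and 1 was higher at 36 h, where 20.5% of all 15572 genes were lower and 18.8% higher (edgeR, adjusted p under 0.05). At 23.3% the share of members called lower was close to that background. The members' median log2 fold change was -0.40, against -0.04 over all genes. This median depended on the 4 h library. Without 4 h replicate 1 it was -0.81, and 63.3% of members were lower (38) and 1.67% higher (1), against 23.9% and 23.4% of all genes. Without 4 h replicate 2 it was 0.20, and 18.3% of members were lower (11) and 28.3% higher (17), against 23.9% and 23.0% of all genes, which is near the background. The direction of the median thus turned with the 4 h library used. The authors' deposited table called 33 of 61 members at q under 0.05 between 36 h and 4 h, 30 with lower and 3 with higher mean FPKM at 36 h, against 28.1% of all genes in either direction.

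Of the 15 called members 12 kept their call and direction with either 4 h library left out. A fit without a 4 h library takes its spread from the 36 h pair alone. Keeping a call there is thus not a test against the spread at 4 h. With all libraries, HIST3H2A had 25.2 and 24.9 CPM at 36 h, against 62.1 and 117 CPM at 4 h (log2 fold change -1.84 ± 0.29, edgeR adjusted p = 0.00213). HIST1H2BM, an H2B gene at chr6:27782822-27783266, had 4.78 and 2.47 CPM at 36 h, against 12.3 and 18.4 CPM at 4 h (-2.03 ± 0.33, edgeR adjusted p = 0.00266). HIST1H4H, at chr6:26281283-26299085, had 43.5 and 33.8 CPM at 36 h, against 88.2 and 181 CPM at 4 h (-1.80 ± 0.32, edgeR adjusted p = 0.00394). In these 3 genes both 36 h libraries were below 4 h replicate 1, the lower of the 4 h libraries.

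HIST3H2BB, the H2B neighbour of HIST3H2A at chr1:228645808-228646258, had 26.3 and 35.1 CPM at 36 h, against 50.6 and 89.8 CPM at 4 h (-1.20 ± 0.28, edgeR adjusted p = 0.0124). HIST1H3J, an H3 gene, had 21.9 and 26.1 CPM at 36 h, against 43.5 and 81.9 CPM at 4 h (-1.39 ± 0.29, edgeR adjusted p = 0.00734). HIST1H2AL, HIST2H3D, HIST1H2BB, HIST1H3H, HIST1H2BE and HIST1H2AE, the other 6 that fell whichever 4 h library was left out, had log2 fold changes of -1.10 to -1.39. They comprise H2A, H2B and H3 genes. HIST1H2AH, HIST1H2AJ and the HIST1H2AD and HIST1H3D row lost their call in at least 1 of these fits.

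HIST1H1D, a linker histone gene at chr6:26234441-26235216, was the member that rose. It had 176 and 169 CPM at 36 h, against 61.9 and 107 CPM at 4 h (log2 fold change 1.03 ± 0.25, edgeR adjusted p = 0.0134), and it kept that call with either 4 h library left out. Of the 5 tested H1 members 4 had a positive fold change and none was called lower, with a median of 0.14, while the medians of the H2A, H2B, H3 and H4 members were -0.61, -0.37, -0.38 and -0.56. HIST1H1C had 480 and 528 CPM at 36 h, against 225 and 422 CPM at 4 h (0.64 ± 0.27, edgeR adjusted p = 0.0974). These medians moved with the 4 h library: without 4 h replicate 1 the H1 median was -0.24, with 2 of 5 positive and HIST1H1A called lower (-0.95, edgeR adjusted p = 8.55e-04), and without 4 h replicate 2 the medians of the H1, H2A, H2B, H3 and H4 members were 0.79, 0.04, 0.24, 0.19 and 0.14. The difference between the families was not tested.

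The most abundant members had no call between 36 h and 4 h with all libraries. HIST1H4C had 223 and 204 CPM at 36 h, against 209 and 421 CPM at 4 h, and HIST1H2BC, an H2B gene, had 272 and 212 CPM, against 137 and 275 CPM (log2 fold changes -0.56 and 0.23, edgeR adjusted p = 0.161 and 0.577). HIST2H2AC had 207 and 203 CPM at 36 h, against 110 and 214 CPM at 4 h, and HIST1H3B had 123 and 133 CPM, against 148 and 265 CPM (0.34 and -0.69, edgeR adjusted p = 0.371 and 0.0649). HIST1H2BD had 252 and 240 CPM, against 169 and 337 CPM (-0.04, edgeR adjusted p = 0.923). In HIST1H2BC, HIST2H2AC and HIST1H2BD both 36 h libraries lay between the 4 h libraries, and in HIST1H4C the groups overlapped, while both 36 h libraries of HIST1H3B lay below the 4 h libraries. Calls appeared when a 4 h library was left out. Without 4 h replicate 1, HIST1H4C (-0.98), HIST1H3B (-1.05) and HIST1H2BD (-0.45) were lower at 36 h (edgeR adjusted p = 3.44e-04, 2.03e-04 and 0.0216). Without 4 h replicate 2, HIST1H2BC (0.87), HIST2H2AC (0.94), HIST1H1C (1.21) and HIST1H2BD (0.58) were higher (edgeR adjusted p = 0.00351, 7.90e-04, 3.64e-04 and 0.00855).

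**Figure D5:**
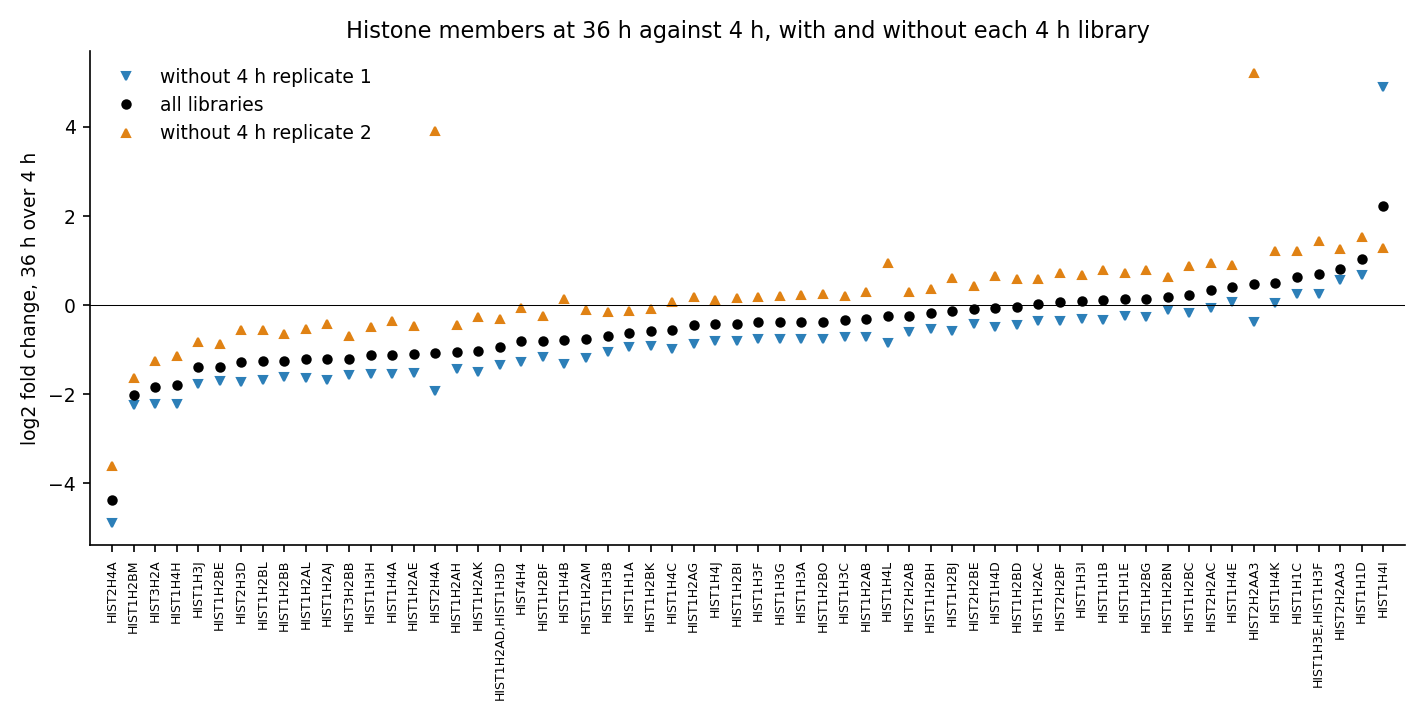
Log2 fold change, 36 h over 4 h, of the 60 members tested, ordered by the fit on all libraries (circles), with the fits that leave out 4 h replicate 1 (triangles down) and 4 h replicate 2 (triangles up); each mark is a fitted value and no error bars are drawn. The median is -0.40 with all libraries, -0.81 without replicate 1 and 0.20 without replicate 2.

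The 12 h library held the highest share of histone fragments among the 11 libraries used. Against 0 h, 57 of 60 members had a positive log2 fold change (47.6% of all genes did), with a median of 1.05 against -0.03 over all genes. The 2 libraries at 4 h, labelled as replicates, differed by a median log2 ratio of 0.96 over 55 members, all 55 in 1 direction. With 1 library at 0 h and 1 at 12 h, a shared shift of 1.05 cannot be told from a gap between replicates. Only 2 members passed the test, HIST1H1A, a linker histone gene with 106 CPM at 12 h against 24.6 CPM at 0 h (2.1 ± 0.36, edgeR adjusted p = 0.0173), and HIST1H2BB with 51.6 CPM at 12 h against 11.2 CPM at 0 h (2.20 ± 0.44, edgeR adjusted p = 0.0330). Over all genes 3.04% were called higher and 1.20% lower. Each time had a single library, whose spread was borrowed from the replicated times, and the count of members called higher was 0 to 44 over the alternatives. It was 44 (73.3%) with either 4 h library left out, where 9.18% and 9.41% of all genes were called higher, and 21 and 20 without 36 h replicate 1 and replicate 2. The authors' deposited table called 33 members higher and 1 lower of 62 at 12 h (7.01% of all genes in either direction).

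Against 0 h the other times showed few calls. At 4 h edgeR called 0 of 60 members in either direction (3.15% of all genes higher, 3.09% lower; DESeq2 called 1 higher and 0 lower, limma 0), 3 (5.00%) were higher and 4 (6.67%) lower at an unadjusted p under 0.05, against 11.3% and 12.7% of all genes, and the median was 0.25. That median too turned with the 4 h library: it was 0.65 without 4 h replicate 1, with 28 members higher and 1 lower, and -0.37 without 4 h replicate 2, with 1 higher and 10 lower. All genes called higher and lower were 12.2% and 15.3% without replicate 1, and 6.74% and 5.84% without replicate 2. The authors' deposited table called 7 members higher and 3 lower of 59 there, against 8.97% of all genes in either direction. HIST3H2A had 62.1 and 117 CPM at 4 h, against 38.8 CPM at 0 h (1.21 ± 0.35, edgeR adjusted p = 0.0852). At 36 h 0 members were higher and 2 lower than at 0 h (9.99% of all genes higher, 9.36% lower), and the median was -0.30. The count lower was 20 without 4 h replicate 1, 17 without 4 h replicate 2 and 8 without 36 h replicate 1, and 21.6% and 19.3% of all genes were lower in the fits without a 4 h library. HIST1H2BM had 4.78 and 2.47 CPM at 36 h, against 11.6 CPM at 0 h (-1.62 ± 0.37, edgeR adjusted p = 0.0210). The authors' deposited table called 0 members higher and 22 lower of 60, against 16.3% of all genes in either direction. HIST1H4J, an H4 gene with 1.35 and 2.18 CPM at 36 h against 5.80 CPM at 0 h, was the other member lower in edgeR (-1.77 ± 0.42, edgeR adjusted p = 0.0244). These 3 comparisons share the single 0 h library.

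The lists of other genes were counted in the same fits of the time course. Of the 21 S-phase genes tested 16 were lower and 0 higher at 36 h against 4 h, with a median of -1.02. Over all genes 20.5% were lower and 18.8% higher. The S-phase genes were led by CDC6, a factor that loads the replicative helicase (-1.65 ± 0.16, edgeR adjusted p = 2.92e-04), and MCM2, a helicase subunit (-1.43 ± 0.15, edgeR adjusted p = 4.19e-04). At 12 h against 0 h 3 of the 21 S-phase genes were higher and 0 lower, with a median of 0.65. Over all genes 3.04% were higher and 1.20% lower there. In the list of histone gene transcription CCNE2 and E2F1 were lower at 36 h than at 4 h (-2.15 ± 0.21 and -2.19 ± 0.23, edgeR adjusted p = 2.54e-04 and 3.96e-04), and these were the 2 called of 9. At 12 h against 0 h 4 of the 9 were higher, CCNE2, CCNE1, E2F1 and CDK2. SLBP was lower at 36 h than at 4 h (-0.59 ± 0.15, edgeR adjusted p = 0.0186) in a processing list with 2 higher and 6 lower of 20. ZCCHC6, a uridylating enzyme, was higher there (1.73 ± 0.17, edgeR adjusted p = 3.09e-04). Of the chaperones 0 of 11 were higher and 4 lower at 36 h, ASF1B by -1.26 ± 0.19 (edgeR adjusted p = 0.00167).

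The replacement histones at 36 h against 4 h comprised 2 higher and 5 lower of 11. H1F0 rose by 2.01 ± 0.20 (edgeR adjusted p = 2.65e-04), whereas H2AFY, H2AFZ and H2AFX had log2 fold changes of -1.20, -0.99 and -0.98 (edgeR adjusted p = 0.00473, 0.00612 and 0.00891). Of 10 CDK inhibitors, D cyclins and related genes 4 were higher and 5 lower at 36 h. CDKN2D, an inhibitor of the D cyclin kinases, rose by 2.05 ± 0.32 and CCND2 fell by 1.75 (SE 0.22) (edgeR adjusted p = 0.00201 and 7.64e-04). H1F0 was thus lower in LINC00520 cells than in untransduced cells and higher at 36 h than at 4 h, in different cell lines and with separately scaled tables.

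HIST3H2A and HIST3H2BB lie side by side on chromosome 1 and are read in opposite directions from a shared stretch of DNA, and their levels per length can be set side by side. Time-course levels were 184 FPKM for HIST3H2A and 230 FPKM for HIST3H2BB at 0 h, 287 and 537 against 299 and 523 FPKM at 4 h, 277 against 359 FPKM at 12 h, and 97.3 and 116 against 123 and 208 FPKM at 36 h. In the over-expression experiment HIST3H2A had 13.7 and 10.3 FPKM in LINC00520 cells and 18.9, 22.7 and 17.9 FPKM in untransduced cells. HIST3H2BB had 0.686 and 0.297 FPKM in LINC00520 cells and 0.0930, 0.556 and 0 FPKM in untransduced cells. No over-expression library reached 1 FPKM for HIST3H2BB. GENCODE lists the polyA signal printed above for HIST3H2A, and none in the last 50 bases of the HIST3H2BB transcript, which has 1917 bases after its stem-loop.

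The promoter of HIST3H2A from RefSeq is printed because it overlaps nearly all of that of HIST3H2BB (250 bases before to 50 bases after the start, minus strand, GRCh38.p14, chr1:228457824-228458123; HIST3H2BB plus strand, chr1:228457853-228458152). CCAAT boxes, on either strand, are in capitals.
HIST3H2A promoter: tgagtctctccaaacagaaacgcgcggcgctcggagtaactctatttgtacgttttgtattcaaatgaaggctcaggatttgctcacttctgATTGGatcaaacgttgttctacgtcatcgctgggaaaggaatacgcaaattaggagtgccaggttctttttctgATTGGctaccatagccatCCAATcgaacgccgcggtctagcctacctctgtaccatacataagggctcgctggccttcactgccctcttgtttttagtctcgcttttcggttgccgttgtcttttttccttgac
The 3 boxes begin at positions -158, -84 and -66 counted from the start of HIST3H2A. RefSeq promoters were found for 61 of the 66 symbols. CCAAT, searched on both strands as in all motifs here, was in 85.2% of them, against 34.6% of all 35116 RefSeq promoters of the same length. It was in all 6 H1, 14 H2A, 18 H2B and 11 H3 promoters and in 3 of 12 H4 promoters. TATAAA was in 65.6% of member promoters, against 11.5% of all. The octamer ATTTGCAT was in 42.6%, against 1.77% of all, and was found in 11 of 14 H2A and 14 of 18 H2B promoters, 1 of 11 H3 promoters and none of the H1 and H4 promoters. The H3 promoter with the octamer, that of HIST1H3D, is the same interval as the HIST1H2AD promoter. Several H2A and H2B promoters, such as those of HIST1H2AG and HIST1H2BJ, also overlap, so the promoters counted are not all separate sequences. Such matches describe the sequence and are not evidence of binding.

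Members at the bottom of the range need care. HIST1H2AA, HIST1H2BA, HIST1H4F and HIST1H4G had no fragment in any of the 11 libraries. The 2 rows each of HIST2H2AA3, HIST2H3C and HIST2H4A, near-identical copies on chromosome 1, had at most 2.24 FPKM in the time course and 0 fragments in the over-expression experiment, so the assignment of their reads is uncertain. HIST1H1T, HIST1H4I and HIST3H3 reached at most 1.88 FPKM. The extreme fold changes of the 36 h and 4 h comparison, -4.38 for a HIST2H4A row and 2.23 for HIST1H4I, come from these rows. Among the 55 rows that reached 10 FPKM the range was -2.03 to 1.03.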

How the data were processed

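The submitters' processing notes name CASAVA 1.4, TopHat, Cuffdiff and the build hg19, without giving their roles. The annotation, the strand setting and the versions of TopHat and Cuffdiff are not given in the sources used here. Per the file headers, the authors' tables hold an estimated count of fragments per gene and library, and FPKM scaled by transcript length and library size. The authors' deposited calls tables give 1 q-value per gene and condition pair, used with the sign of the mean FPKM difference.

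Of 13 samples 11 matched columns by name, and 7 further libraries in the over-expression table matched no label and were not used. Estimated counts were rounded. A row was tested if its Cuffdiff status was OK and its FPKM reached 1 in 2 over-expression libraries (12790 rows) or in 1 time-course library (15572 rows). edgeR 4.0.16 (TMM, glmQLFTest, 1 coefficient per group) gave 2-sided p-values, adjusted by Benjamini-Hochberg over all rows, with a threshold of 0.05. The common coefficient of variation was 0.0249 (3 residual degrees of freedom) in the over-expression experiment and 0.162 (2) in the time course. No label says that replicates were separate cultures, so p-values may reflect technical spread only. Replicates differed beyond counting noise, with median chi-square ratios of 11.0 for the 4 h pair, 3.47 for the 36 h pair and 1.23 to 1.72 for over-expression pairs. The fits were tested on simulated data.

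Members and lists were chosen with earlier results of these data known. Named members are those called in the LINC00520 comparison or between 36 h and 4 h (the 12 smallest p where more were called) and the 6 with the highest median FPKM in each experiment, plus up to 4 called genes of each other list. Further members were named after their values were seen. Among them were HIST2H2BF, HIST1H1A, HIST1H1B, HIST1H1E, HIST1H4J, HIST1H2BL, HIST1H2BJ for its implied length, and the low rows. Alternatives were other size factors, other filters, DESeq2 1.42.0, limma 3.58.1 on log2(FPKM + 1) and log2(FPKM + 0.1), each replicate left out and a replicate block. The scripts ran in R 4.3.3 and in Python 3.11.15 with pandas 2.3.3; matplotlib 3.10.9 drew the plots.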

Additional observations from a re-analysis of the deposited data

How the results depend on the processing

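In the LINC00520 comparison the count of members called lower was 8 and ranged from 5 to 8 with 1 library left out; DESeq2 gave 5, and all other settings 7 to 9. Limma on either pseudocount called 1 member higher, HIST2H2AC, where edgeR and DESeq2 called 0. Of all 12790 genes DESeq2 called 2456 lower and 2493 higher.

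For 36 h against 4 h, 14 members were lower and 1 higher; with 1 library left out the counts were 11 to 38 lower and 1 to 17 higher. Library totals alone gave 23 lower, and no filter 26 lower and 2 higher. DESeq2 gave 20 lower and 2 higher, and limma 6 lower and 0 higher with either pseudocount. No filter called 40.6% of members and 15.3% of all genes lower, and 3.12% and 12.6% higher. Of 15572 genes, library totals called 4823 lower, and DESeq2 2661 lower and 2895 higher. Limma called 2323 of them lower with a pseudocount of 1 and 2198 with 0.1. HIST1H2BD, at -0.04 with all libraries, was 0.58 (edgeR adjusted p = 0.00855) without 4 h replicate 2 and -0.45 without 4 h replicate 1. Library totals alone moved the median over all genes to -0.29 for 36 h against 4 h and -0.43 for 36 h against 0 h, where the members' medians were -0.65 and -0.66.

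For 4 h against 0 h the counts were 0 and 0; no filter gave 9 higher and 3 lower, 10 or more fragments 1 higher, DESeq2 1 higher, and leaving out 1 library 1 to 28 higher and 1 to 10 lower. For 12 h against 0 h, 2 were higher; library totals gave 1, no filter 38, 10 or more fragments 4, DESeq2 16, limma 0 with either pseudocount, and leaving out 1 library 20 to 44. None was lower in any setting run. At 12 h against 0 h no filter called 59.4% of members higher, against 3.60% of all genes. Of 15572 genes DESeq2 called 634 higher there and library totals 390. With 10 or more fragments 622 of 22787 genes were higher. For 36 h against 0 h, 0 were higher and 2 lower; no filter gave 1 higher and 15 lower, library totals 8 lower, limma on log2(FPKM + 0.1) 1 lower, and leaving out 1 library 0 to 2 higher and 3 to 20 lower. No filter called 23.4% of members and 9.98% of all genes lower at 36 h than at 0 h, and 1.56% and 7.81% higher. Of 15572 genes, library totals called 3740 lower there and limma on log2(FPKM + 0.1) 415. For 4 h against 0 h, no filter called 14.1% of members and 4.33% of all genes higher. It called 4.69% and 5.48% lower. DESeq2 called 732 of 15572 genes higher there, and 10 or more fragments 742 of 22787. Why the counts moved between settings was not tested.

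All-gene counts moved by more than 1.5 times in the time course: 491 genes were higher at 4 h than at 0 h (78 to 1902 over the settings), 474 at 12 h (150 to 1466), 1556 at 36 h (905 to 2878) and 2930 at 36 h against 4 h (1861 to 3642). Lower genes numbered 481 (80 to 2386), 187 (73 to 1278), 1458 (415 to 3740) and 3200 (1733 to 4823).

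Same-numbered replicates did not deviate together (correlations -0.0516 and -0.0466 in the over-expression experiment, 0.0982 between the 36 h and 4 h libraries), so numbers only name libraries. With a replicate block 7 members were lower and 0 higher in LINC00520 cells, and 17 were lower and 2 higher at 36 h against 4 h.

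In the over-expression experiment 55 of the 68 rows were below the level filter, with a median of 0.133 FPKM over all 68 rows, so fold changes there cover few members.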
